A study of Mus musculus with 10 samples.

Results

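Smyd3 is the gene of SET and MYND domain containing 3, a lysine methyltransferase, and it was followed here through every CUT&Tag region that the deposited annotation assigns to it. These were 85 of the 340994 regions in 5 tables, of which 71 of 275141 came from the 4 tables that compare TGF and siHK1 libraries. H3K9lc had 14 of them, JUN 22, SMAD3 19 and NFATC2 16, and a further table of H3K9lc in NC and TGF libraries had 14. The regions were taken by gene symbol alone, so neither reads nor ratios entered their choice.

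The cells were primary murine cardiac fibroblasts. In CUT&Tag a transposase is tethered by an antibody to the protein or mark of interest, where it cuts the DNA and adds the ends needed for sequencing. The NC library carries the treatment label None, TGF cells received TGF-β, a cytokine that activates fibroblasts, and siHK1 cells were transfected with siRNA against hexokinase 1 (HK1), an enzyme of glycolysis, before they received TGF-β. The comparison of siHK1 with TGF addresses whether loss of HK1 alters lactylation of histone H3 at lysine 9 (H3K9lc) and the occupancy of JUN, SMAD3 and NFATC2. The siHK1 library of H3K9lc is titled SI, and the NC library was taken as H3K9lc from the name of the table given in its description. Strain, age and the siRNA given to TGF cells are not in the labels. JUN, SMAD3 and NFATC2 were profiled in 1 biological repeat. There was 1 library for each condition and antibody, so no difference was tested, and every statement compares libraries and not conditions.

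SMYD3 transfers methyl groups to lysines through its SET domain, while its MYND domain is a zinc finger for protein contacts. Its substrates include histones and cytoplasmic kinases such as MAP3K2. JUN is a subunit of AP-1, a dimeric factor that recognises TGACTCA, SMAD3 carries the signal of the TGF-β receptor into the nucleus and contacts CAGAC, and NFATC2 is a calcium-dependent factor that contacts GGAAA. Lactylation of histone lysines uses a lactyl group and is generally linked to active chromatin. Neither RNA nor protein was measured in these libraries, and the level of Smyd3 itself and the depletion of HK1 were not seen.

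On GRCm38 the gene runs on the reverse strand of chr1:178951960-179518041, over 566.1 kb, with 12 exons in its full-length transcript. Intron 5 alone measures 310.9 kb (54.9% of the gene), intron 1 measures 94.4 kb and intron 10 measures 71.4 kb. Kif26b, a kinesin family gene, ends 12.8 kb beyond the distal end, and Tfb2m, which encodes a mitochondrial transcription factor, lies 10.0 kb before the start site. Distances below are from the Smyd3 start site in the direction of transcription.

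The regions that carried most of what follows are shown first. The first sequence comes from an intron 5 site, 354 kb from the start, where H3K9lc, JUN and SMAD3 regions overlapped. It is the middle of the stretch that all 3 regions share. It is printed because the site is a tandem repeat, and the capitals mark a 15-base stretch that recurs along it. The other 3 sequences come from sites where JUN and SMAD3 regions overlap. They surround AP-1 letters that lie in the JUN region, with TGACTCA or its reverse complement TGAGTCA in capitals. Only in intron 1 do the letters also lie within a SMAD3 region. The site of intron 9, also shared by JUN and SMAD3, did not hold these letters. All are on the forward strand of the RefSeq GRCm38.p6 assembly, at chr1:179163481-179163680, chr1:179477775-179477924, chr1:179042141-179042290 and chr1:178999946-179000095 in the order given.
Intron 5 repeat: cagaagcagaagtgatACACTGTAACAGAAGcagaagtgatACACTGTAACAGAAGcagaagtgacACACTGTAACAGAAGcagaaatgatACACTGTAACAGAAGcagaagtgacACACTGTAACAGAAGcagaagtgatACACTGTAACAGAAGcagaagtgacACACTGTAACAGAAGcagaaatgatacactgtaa
Intron 1 site: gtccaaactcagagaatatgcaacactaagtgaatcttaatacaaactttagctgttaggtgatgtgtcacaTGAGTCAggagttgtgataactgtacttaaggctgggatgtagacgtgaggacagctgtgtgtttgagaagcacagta
Intron 10 site of highest JUN reads: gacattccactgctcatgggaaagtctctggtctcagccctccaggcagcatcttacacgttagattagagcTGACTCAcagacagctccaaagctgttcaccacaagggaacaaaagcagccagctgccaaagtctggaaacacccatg
Intron 10 distal site: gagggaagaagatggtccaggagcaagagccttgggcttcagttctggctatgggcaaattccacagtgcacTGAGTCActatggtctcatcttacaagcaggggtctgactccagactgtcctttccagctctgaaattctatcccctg

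The stretch ACACTGTAACAGAAG occurred 41 times within the 1189 bp of the intron 5 site, with a median spacing of 25 bp, and 50 times in an array of 1510 bp at chr1:179162928-179164437. As a measure of uniqueness, each region was cut into all its 31-mers, and the share that occurs once in chromosomes 1 to 19, X and Y was counted. At this site the share was 6.15% for the H3K9lc region, 0.421% for the JUN region and 0% for the SMAD3 region. How reads with several equally good positions were placed is not given in the sources used here. The 3 AP-1 sites differ in this respect, since the JUN regions around them had shares of 99.1% in intron 1 and 100% at both sites of intron 10.

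**Figure D1:**
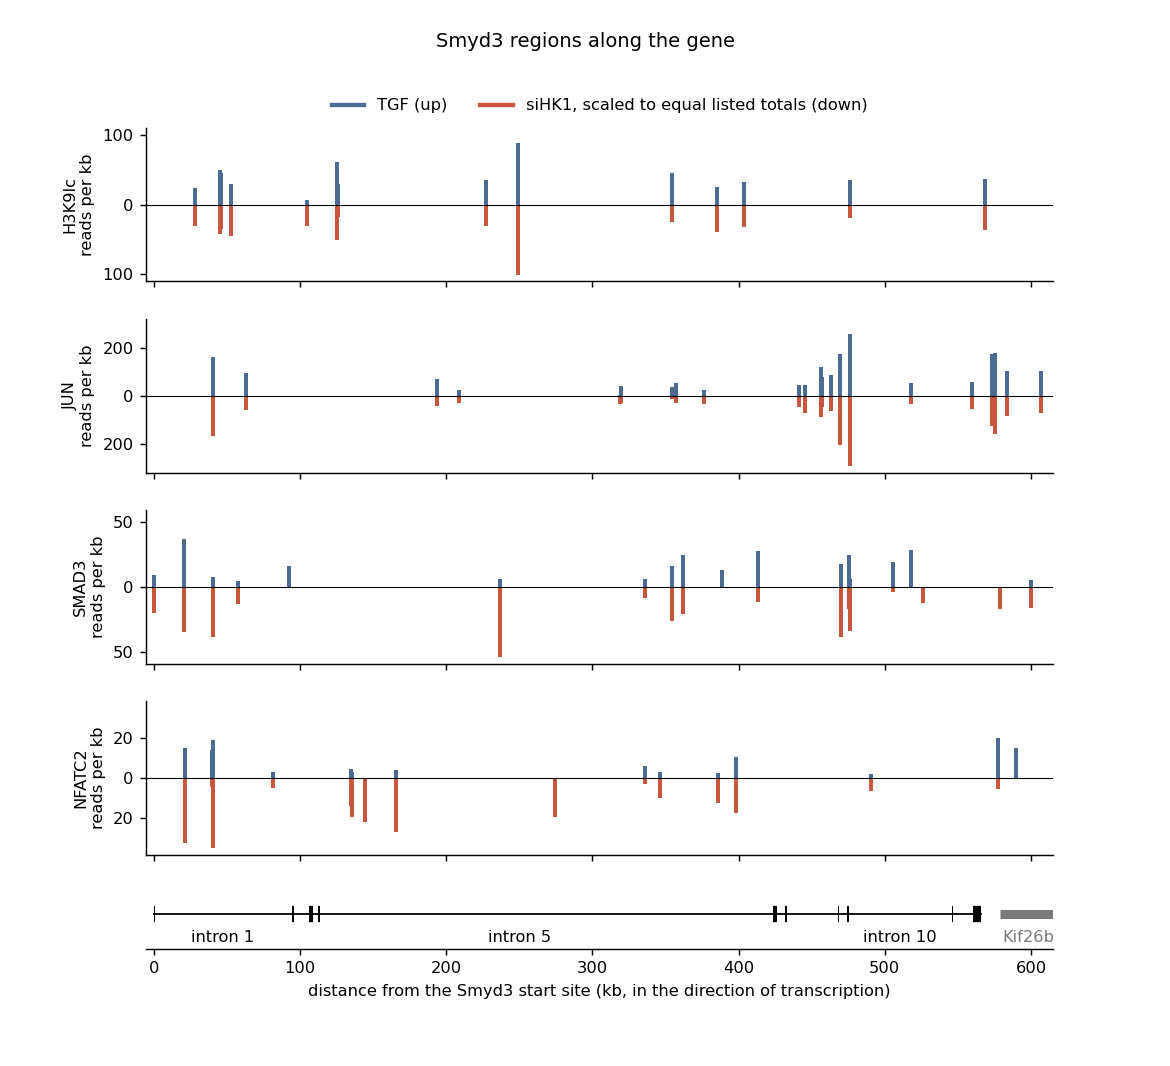
Reads per kb of each Smyd3 region against the distance from the start site in kb, with TGF libraries upward and siHK1 libraries, scaled to equal listed totals, downward for each of 4 antibodies. The lowest track draws the exons of Smyd3 and the end of Kif26b. H3K9lc peaks at 249 kb in intron 5, JUN regions crowd between 442 and 476 kb, and only SMAD3 has a region at 0.447 kb. That region had a peak called in siHK1 alone.

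Most reads of H3K9lc and of JUN lay in different stretches of the gene. H3K9lc reads lay mainly in intron 5, where 7 regions held 72.3% of the Smyd3 reads in the TGF library and 73.1% in the siHK1 library. JUN reads lay mainly in the distal part, where 9 regions in introns 8 to 11, a stretch of 128.8 kb, held 53.2% and 57.7%. Regions of JUN numbered 6.99 per 100 kb there and 2.25 per 100 kb in intron 5. H3K9lc had the same 2.25 regions per 100 kb in intron 5, which is the longest intron, and 4.24 per 100 kb in intron 1. SMAD3 regions were spread over introns 1, 5, 9 and 10 with 4, 6, 1 and 5 regions, while NFATC2 had 4 in intron 1, 9 in intron 5 and 1 in intron 10.

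Only SMAD3 had a region at the start site. It covered exon 1 and the start of intron 1 at chr1:179517134-179518041, where TGF had 8 reads and siHK1 had 13. A peak was called there in siHK1 alone and not in TGF. The nearest NFATC2, H3K9lc and JUN regions lay 21.8, 28.6 and 40.4 kb into the gene, so none of the Smyd3 regions of these antibodies lay at the start site of the full-length transcript. Of all regions, 4 for JUN, 2 for SMAD3, 2 for NFATC2 and 1 for H3K9lc lay outside the gene, inside Kif26b or in the gap after it, and the deposited annotation ties them to a 32.1 kb processed transcript at the distal end of Smyd3.

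Depth set what could be seen. Reads in listed regions, which are not library depths, came to 2490853 in TGF and 1419023 in siHK1 with the H3K9lc antibody, and JUN had 4215447 and 2271336. SMAD3 was shallower with 563562 and 399897, as was NFATC2 with 575706 and 354599, and NC had 115572. The median Smyd3 region had 24 reads in TGF and 10.5 in siHK1 (H3K9lc), 41.5 and 19 (JUN), 5 and 3 (SMAD3) or 1 and 2 (NFATC2). Levels are given as RPM, reads per 1000000 listed reads. All ratios below put the 2 libraries on equal listed totals, and brackets give the exact 95% binomial interval. PCR copies are not independent molecules, so these intervals cover counting error only.

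**Figure D2:**
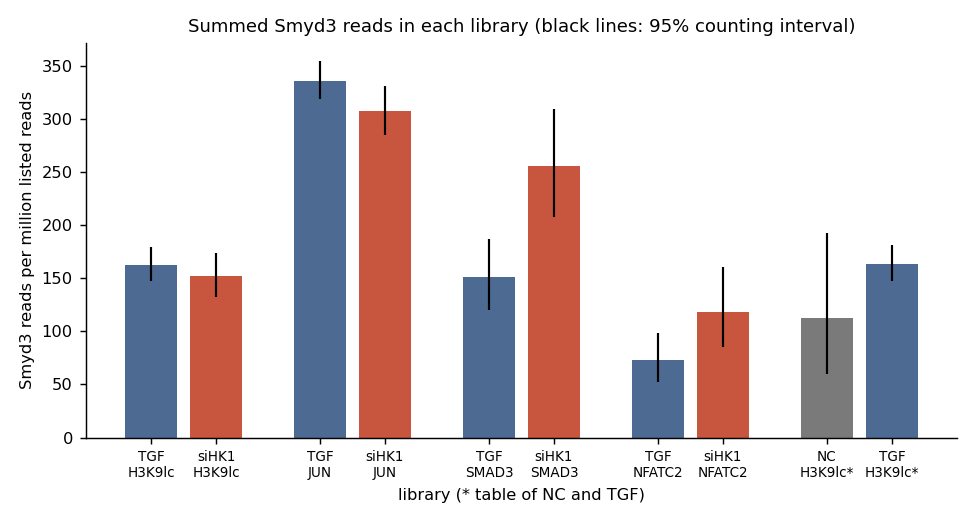
Reads summed over all Smyd3 regions in each library, as a share of its listed reads (RPM), as bars, with the exact 95% counting interval as black lines. Within antibodies the TGF and siHK1 intervals overlap for H3K9lc, JUN and NFATC2, and those of SMAD3 stand apart at 151 and 255 RPM.

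At equal listed totals, H3K9lc over Smyd3 was close to level between TGF and siHK1. The 14 regions summed to 405 reads in TGF and 216 in siHK1, which is 163 (147 to 179) and 152 (133 to 174) RPM. The log2 ratio of siHK1 over TGF was -0.10 [-0.34, 0.15]. Without scaling it was -0.91 [-1.15, -0.67] with 6 of 14 regions at least 2-fold lower, and a change common to all regions would not be seen at equal totals. TGF had 1.755 times the listed reads of siHK1 for H3K9lc. The unscaled share over all H3K9lc regions was not computed, so nothing particular to Smyd3 is read from the 6. Across all genes with an H3K9lc region, 7.23% had a summed ratio lower beyond its counting interval and 4.97% had one higher. No Smyd3 region was lower by 2-fold or more (13.7% of all H3K9lc regions were) and 1 of 14 was at least 2-fold higher (13.0% of all). None lay beyond its counting interval in either direction, against 4.01% lower and 4.22% higher among all regions.

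The strongest H3K9lc region was in intron 5 at chr1:179268430-179269708, with 114 reads in TGF and 73 in siHK1. Its log2 ratio was 0.17 [-0.28, 0.61]. It held 89.1 reads per kb in TGF, and the next in order, at chr1:179392533-179393217, held 61.3 per kb with 42 and 20 reads and a log2 ratio of -0.24 [-1.11, 0.54]. Their neighbour at chr1:179391268-179392338 had 32 and 11 reads.

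The lowest ratio belonged to the repeat of intron 5, with 43 reads in TGF and 13 in siHK1 (log2 -0.88 [-1.93, 0.0078]). Next was the intron 10 region at chr1:179041374-179041942, with 20 and 6 reads (log2 -0.85 [-2.53, 0.44]). Both intervals include no change, and both regions were listed through a peak in TGF alone. At the other end, the highest ratio among regions above the median level was at chr1:179132504-179133542, with 27 and 23 reads (log2 0.59 [-0.29, 1.44]). The 1 region called higher, at chr1:179413024-179413306 in intron 2, rested on 2 and 5 reads and was listed through a peak in siHK1 alone. The other 7 regions had log2 ratios from -0.40 to 0.63 on 7 to 40 reads in TGF, so 7 of the 14 lay below 0 and 7 above.

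H3K9lc regions of Smyd3 were more often unique sequence than H3K9lc regions at large. Their median share of unique 31-mers was 83.5%, beside 57.6% over all regions, and 3 of 14 (21.4%) were under 50% unique, beside 46.8% of all. Those 3 were the repeat and the pair near 126 kb with 0% and 5.19%, and each had fewer scaled reads in siHK1. Without them the summed log2 ratio was 0.07 [-0.21, 0.35]. The part of repeated sequence in the H3K9lc values was not tested.

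Over the listed regions, Smyd3 reads of H3K9lc had a higher share in TGF than in NC, and whether the interval excluded no change depended on the scaling. Its table listed 14 Smyd3 regions with 13 reads in NC and 379 in TGF, a log2 ratio of TGF over NC of 0.54 [-0.25, 1.47] at equal listed totals and 1.37 [0.58, 2.29] with the median of regions with a peak in both libraries set to 0. Of genes in that comparison 3.22% had sums lower beyond the interval and 4.83% higher. NC reads were 0 in 7 of the 14 regions and at most 4, while TGF reads ran from 0 to 107. At least 2-fold, 3 of 14 were lower (24.9% of all regions) and 6 were higher (14.7%). Of those 6, 5 had 0 reads in NC, and with a pseudocount of 1 in place of 0.5 only 2 were higher. Beyond the counting interval, 1 of 14 was lower (2.50% of all) and 0 were higher (0.390% of all). That 1 region lay in intron 5 at chr1:179328050-179328291, with 4 reads in NC and 0 in TGF, and had no counterpart among the H3K9lc regions of TGF and siHK1. Its peak was called in NC alone, while 12 of the 14 regions had a peak in TGF alone and 0 had one in both. Each was thus listed through 1 library only, and the sums and calls of NC and TGF are a description and no independent evidence of a difference.

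The TGF library of H3K9lc is the same in both tables, with equal counts in all 44088 regions of shared coordinates, so their ratios are not independent. For the 8 Smyd3 regions with the same coordinates in both, reads in NC, TGF and siHK1 stood as follows. The intron 5 repeat had 0, 43 and 13 reads, and the intron 10 region had 0, 20 and 6. In intron 1 there were 0, 40 and 17 reads at chr1:179471437-179472304, 0, 21 and 10 at chr1:179472544-179472967, and 1, 7 and 5 at chr1:179489340-179489627. The other 3 had at most 2 reads in NC, 7 to 32 in TGF and 4 to 11 in siHK1. NC was at 0 in 6 of the 8.

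**Figure D3:**
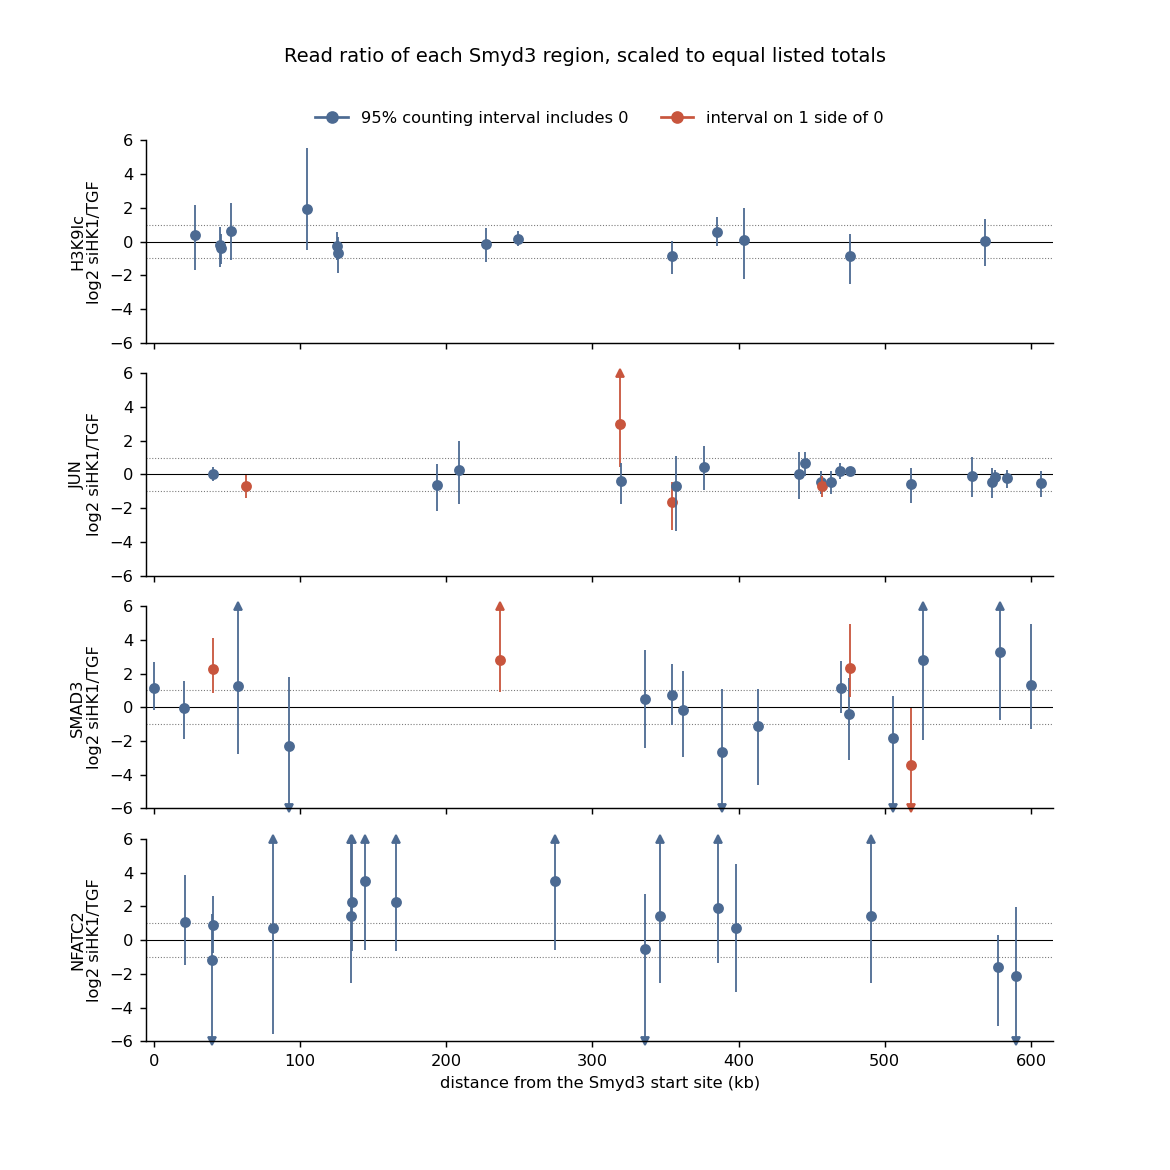
The log2 ratio of siHK1 over TGF for each Smyd3 region against the distance from the start site in kb, with the exact 95% counting interval as lines and triangles where an interval runs past the axis. Dotted lines mark 2-fold. All 14 H3K9lc intervals and all 16 NFATC2 intervals include 0, while 4 of 22 for JUN and 4 of 19 for SMAD3 do not.

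JUN had the most reads over Smyd3 of the 4 antibodies, and 18 of its 22 regions had intervals that include no change. Summed over 22 regions there were 1416 reads in TGF and 697 in siHK1, or 336 (319 to 354) and 307 (284 to 330) RPM. The log2 ratio was -0.13 [-0.26, 0.0014], and its interval lay below 0, at -0.21 [-0.35, -0.081], when the median of regions with a peak in both libraries was set to 0. Of the 22 regions 12 had a peak in both libraries, 9 in TGF alone and 1 in siHK1 alone. The sum thus includes regions listed through 1 library, nearly all of them through TGF, and is given as a description. Among all genes with a JUN region, 11.8% had sums lower beyond the interval and 10.3% had sums higher. The median region of Smyd3 stood at -0.33 on the log2 scale and the median of all JUN regions at -0.04, with 14 of the 22 below 0 and 8 above. The 12 with a peak in both libraries had a median of -0.12 (7 below 0 and 5 above), beside 0.08 over all such JUN regions. The 9 with a peak in TGF alone had -0.57, beside -0.57 over all such regions.

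JUN reads were also summed by place along the gene. The 9 in introns 8 to 11 held 753 and 402 reads, a log2 ratio of -0.01 [-0.19, 0.16], and the 2 in intron 1 held 207 and 98 (log2 -0.19 [-0.55, 0.17]). The 7 in intron 5 held 114 and 46 (log2 -0.42 [-0.94, 0.089]). The 4 beyond the gene held 342 and 151 (log2 -0.29 [-0.57, -0.0069]), and inside the gene alone the ratio was -0.08 [-0.24, 0.066].

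The region of highest JUN reads was the intron 10 site printed above, at chr1:179041400-179042631, with 315 reads in TGF and 193 in siHK1. It stood at 256 reads per kb in TGF and 291 scaled reads per kb in siHK1, with a log2 ratio of 0.19 [-0.081, 0.45]. Intron 9, 469.7 kb from the start, had 96 and 60 reads (log2 0.22 [-0.28, 0.69]). The intron 1 site had 132 and 73 (log2 0.04 [-0.40, 0.46]), and the strongest region outside the gene, at chr1:178942450-178943261, had 145 and 69 (log2 -0.17 [-0.61, 0.24]). None of these 4 deep regions lay beyond its interval.

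At least 2-fold, 1 of 22 JUN regions was lower (11.4% of all) and 1 was higher (7.44%). Without scaling 13 of 22 were lower, and the summed log2 ratio was -1.02 [-1.16, -0.89]. TGF had 1.856 times the listed reads of siHK1 for JUN. The unscaled share over all JUN regions was not computed, so nothing particular to Smyd3 is read from the 13. Beyond the counting interval, 3 were lower (9.26%) and 1 was higher (8.15%). The 2-fold lower region was the intron 5 repeat at chr1:179163097-179164077, with 37 reads in TGF and 6 in siHK1 (log2 -1.64 [-3.27, -0.48]). The 2-fold higher region, at chr1:179199064-179199381 in intron 5, rested on 1 and 6 reads, a ratio of 11.1 scaled reads over 1 with an interval from 1.35 to 512. These were also the only 2 of the 22 with under 50% unique 31-mers, at 0.421% and 47.2%, beside 4.23% of all JUN regions, and none of the other regions was past 2-fold. The part of repeated sequence in these values was not tested.

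The remaining 2 beyond their interval were unique sequence (100% of 31-mers) and lower by less than 2-fold. The intron 8 region at chr1:179060097-179061331 had 96 reads in TGF and 32 in siHK1 (log2 -0.68 [-1.32, -0.10]), and the intron 1 region at chr1:179454290-179455074 had 75 and 25 (log2 -0.67 [-1.41, -0.023]). Next to the former, the intron 8 regions at chr1:179061645-179062203 and chr1:179054161-179054972 had 68 and 27 and 70 and 27 reads, both intervals including 0. Of the 4 JUN regions beyond their interval, only the one in intron 1 had a peak in both libraries. The intron 5 repeat and the intron 8 region at chr1:179060097-179061331 had a peak in TGF alone, and the 2-fold higher region had one in siHK1 alone, so these 3 were listed only through the library where they are high, and their intervals are no independent evidence of a difference. Also in intron 8, the region at chr1:179072059-179072905 had 39 and 33 reads (log2 0.65 [-0.063, 1.36]). The other regions had 8 to 97 reads in TGF and 3 to 44 in siHK1, and log2 ratios between -0.69 and 0.43.

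Over the listed regions, SMAD3 reads at Smyd3 had a higher share in siHK1 than in TGF at equal listed totals. The 19 regions summed to 85 reads in TGF and 102 in siHK1, or 151 (121 to 186) and 255 (208 to 310) RPM, a log2 ratio of 0.76 [0.33, 1.19]. Of all genes with a SMAD3 region 14.4% had sums higher beyond the interval and 8.89% had sums lower, so the direction was shared with many genes. Without scaling the ratio was 0.26 [-0.17, 0.70], because siHK1 had fewer listed reads. Inside the gene alone it was 0.69 [0.25, 1.13]. Of the 19 regions 8 had a peak in siHK1 alone and 8 in TGF alone, so the sum is made mostly of regions listed through the library where they are high, and it is given as a description.

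At least 2-fold, 9 of 19 SMAD3 regions were higher (32.8% of all) and 5 were lower (31.7%). Of the 9, 2 had 0 reads in TGF, and of the 5, 3 had 0 reads in siHK1. Beyond the counting interval, 3 were higher (7.63%) and 1 was lower (4.96%). The median log2 ratio was 0.70, or 0.49 with regions at 0 placed at a floor of 3 reads in that library, beside 0.01 and 0.21 over all SMAD3 regions.

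The 3 higher beyond counting error were at chr1:179477366-179478020 in intron 1, with 5 reads in TGF and 18 in siHK1 (log2 2.24 [0.86, 4.13]), at chr1:179281297-179281612 in intron 5, with 2 and 12 (log2 2.82 [0.91, 6.28]), and at chr1:179041519-179042016 in intron 10, with 3 and 12 (log2 2.33 [0.61, 4.96]). All 3 were 100% unique by 31-mers. The 1 that was lower lay in the distal site of intron 10 at chr1:179000144-179000393, with 7 reads in TGF and 0 in siHK1, where the upper bound of the ratio was 0.978. Each of the 3 had a peak in siHK1 alone and the lower region had a peak in TGF alone, so each was listed only through the library where it is high, and its interval is no independent evidence of a difference. At the start site 8 and 13 reads gave a log2 ratio of 1.16 [-0.18, 2.67], whose interval includes no change. That region too had a peak in siHK1 alone. The intron 9 region had 7 and 11 reads (log2 1.11 [-0.35, 2.75]).

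Among regions above the median level, the lowest ratios were in introns 10 and 5. The region at chr1:179012552-179012920 had 7 reads in TGF and 1 in siHK1, a scaled ratio with an interval from 0.00447 to 1.57, and that at chr1:179104493-179104744 had 7 and 2, with an interval from 0.0408 to 2.12. A region at chr1:178991894-178992118, less than 3 kb before the start of the short distal transcript, had 0 and 2 reads. The other regions had at most 9 reads in either library.

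Except for 0.167% of SMAD3 and 0.218% of NFATC2 regions, each listed region of these factors had a peak called in at least 1 library. That call moved with the direction. All 8 SMAD3 regions with a peak in TGF alone had lower ratios and all 8 with a peak in siHK1 alone had higher ratios. The same held for all 4 and all 12 such NFATC2 regions. Over all SMAD3 regions, 94.2% of those with a peak in siHK1 alone were higher and 8.30% of those with a peak in TGF alone were. Of the 3 Smyd3 regions with SMAD3 peaks in both libraries, all had ratios above 0, with 3 and 3, 6 and 7, and 7 and 11 reads. Over all SMAD3 regions with a peak in both, 54.1% were higher, and nothing particular to Smyd3 is read from the 3. What part the listing had in the ratios was not tested.

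NFATC2 had the fewest reads at Smyd3. Its 16 regions summed to 42 reads in TGF and 42 in siHK1, or 73.0 (52.6 to 98.6) and 118 (85.4 to 160) RPM, with a log2 ratio of 0.70 [0.047, 1.35]. Of all genes with an NFATC2 region, 9.20% had sums higher beyond the interval and 4.60% had sums lower. Without scaling the ratio was 0 [-0.65, 0.65]. The ratio also depended on which regions were summed. Inside the gene, 14 regions had 27 and 40 reads (log2 1.27 [0.53, 2.03]), while the 2 outside had 15 and 2 (log2 -2.21 [-5.38, -0.10]). In intron 5 alone, 9 regions had 10 and 24 reads (log2 1.96 [0.84, 3.19]). Of the 14 regions inside the gene 12 had a peak in siHK1 alone, as had 8 of the 9 in intron 5, and none had a peak in both libraries. These sums are therefore made of regions listed mostly through the library where they are high, and are given as a description. Over the regions above the median level it was 0.36 [-0.49, 1.205], an interval that includes no change.

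At least 2-fold, 9 of 16 NFATC2 regions were higher (38.4% of all) and 3 were lower (25.6%), with 2 of the 9 at 0 reads in TGF and 1 of the 3 at 0 in siHK1. None lay beyond its counting interval, against 4.88% higher and 2.31% lower among all regions. The median log2 ratio was 1.25, or 0.79 with the floor of 3 reads, beside 0.41 and 0.28 over all NFATC2 regions. Single regions had 0 to 12 reads in TGF and 0 to 8 in siHK1.

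The 3 NFATC2 regions of highest level lay in intron 1 and outside the gene. At chr1:179477130-179477502 in intron 1 there were 7 reads in TGF and 8 in siHK1 (log2 0.88 [-0.77, 2.59]). At chr1:178940166-178940758, between Kif26b and Smyd3, there were 12 and 2 (interval 0.0294 to 1.22), and at chr1:179496177-179496377 in intron 1 there were 3 and 4 (interval 0.366 to 14.8). The neighbour of the first, at chr1:179477711-179478069, had 5 and 1 reads, with an interval of the ratio from 0.00687 to 2.90. The 2 highest ratios among regions above the median level, at chr1:179381830-179382162 and chr1:179351812-179352054 in intron 5, each had 1 and 4 reads. The region at chr1:179373624-179373844, 259 bp into another processed transcript of the gene, had 0 and 3 reads. At this depth no single NFATC2 region could be ordered between the libraries.

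Regions of different antibodies met at few places. The 71 regions formed 60 separate sites, of which 6 had 2 or more antibodies, 3 had 3 and 0 had 4. Sharing at least 1 bp, 2 of 22 JUN regions (9.09%) overlapped an H3K9lc region, beside 6.08% of all JUN regions, and these were 14.3% of the 14 H3K9lc regions. For SMAD3 it was 2 of 19 (10.5%), beside 8.36%, and for NFATC2 0 of 16, beside 7.24%. JUN and SMAD3 shared 5 of the 22 JUN regions (22.7%, beside 18.1%) and 6 of the 19 SMAD3 regions (31.6%, beside 23.0%). With so few regions a difference of 1 moves these shares by several percentage points, and nothing particular to Smyd3 is read from them.

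**Figure D4:**
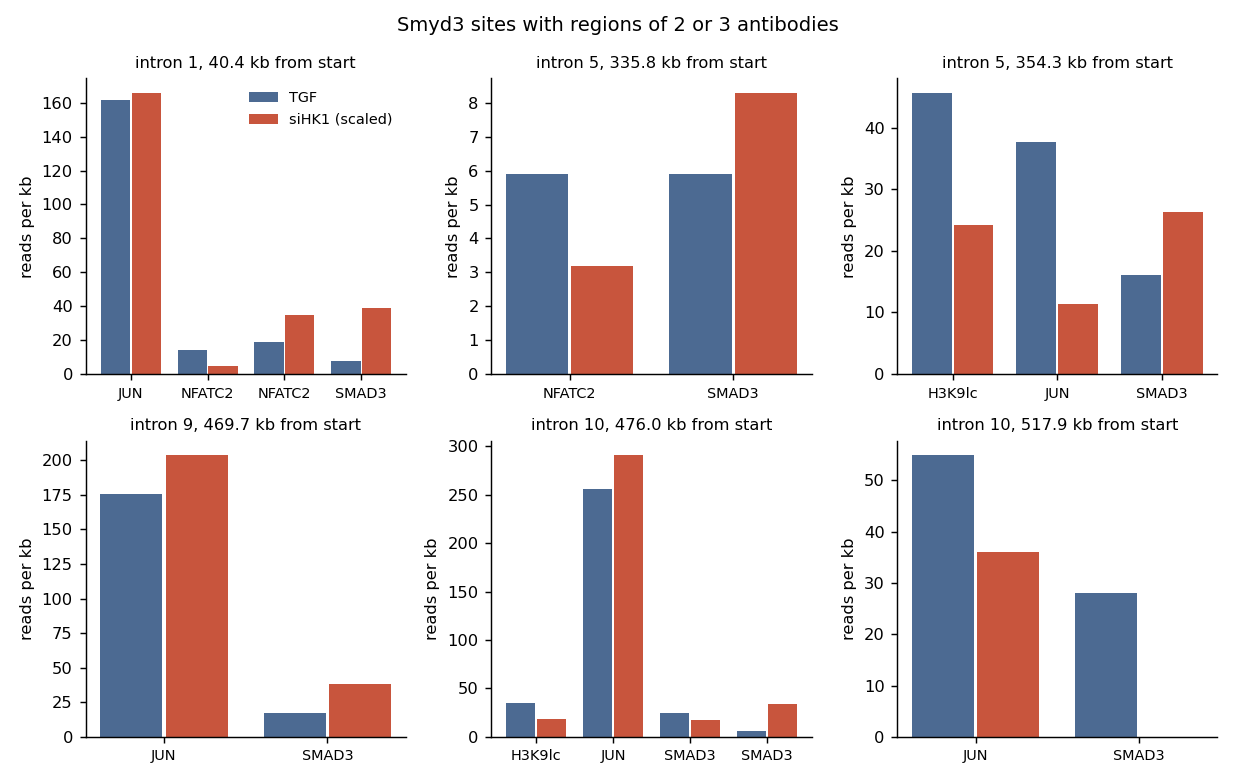
Reads per kb at the 6 Smyd3 sites where regions of 2 or 3 antibodies overlap, as bars for TGF and for siHK1 scaled to equal listed totals, with 1 pair of bars for each region. At the intron 5 repeat the H3K9lc and JUN bars are lower in siHK1, while at the intron 1 site JUN is level at 162 and 166 reads per kb and SMAD3 stands at 7.63 and 38.7. The H3K9lc and JUN regions of the repeat were listed through a peak in TGF alone, and the SMAD3 region of intron 1 through a peak in siHK1 alone.

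Ratios had the same sign for both antibodies at the intron 9 site and the distal site of intron 10, and mixed signs at the other 4, mostly within wide intervals. At the intron 1 site, JUN was level with 132 and 73 reads while SMAD3 had 5 and 18, and the 2 NFATC2 regions there had 7 and 8 and 5 and 1 reads. At the intron 10 site of highest JUN reads, H3K9lc had 20 and 6, JUN 315 and 193, and the 2 SMAD3 regions 3 and 12 and 6 and 3. There the log2 ratio was -0.85 [-2.53, 0.44] for H3K9lc and 0.19 [-0.081, 0.45] for JUN, and their intervals overlap. At these 2 sites only the JUN regions had a peak in both libraries. Every other region there was listed only through the library where it is high, so the differences between antibodies are a description.

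The distal site of intron 10 had lower values for both factors, with 34 and 12 JUN reads (log2 -0.57 [-1.70, 0.37]) and 7 and 0 SMAD3 reads. Both of its regions were listed through a peak in TGF alone. In intron 9, JUN had 96 and 60 and SMAD3 7 and 11. At the intron 5 repeat, H3K9lc had 43 and 13 reads, JUN 37 and 6 and SMAD3 6 and 7. The last site, at chr1:179181980-179182488 in intron 5, had 3 and 1 NFATC2 reads and 3 and 3 SMAD3 reads, and 81.4% of its 31-mers were unique.

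The letters known for the 3 factors were searched on both strands within the middle 200 bp of every region. TGACTCA and CAGAC can share their end letters CA, and a match is a description and not a binding site. TGACTCA was in 3 of 22 JUN regions (13.6%, beside 24.1% of all JUN regions), 0 of 19 for SMAD3 (4.33% of all), 1 of 16 for NFATC2 (4.15%) and 0 of 14 for H3K9lc (3.42%). Anywhere in the region, 8 of the 22 JUN regions held it. The share over all JUN regions was not computed for this rule, and Smyd3 JUN regions were wider (median 560.5 bp, beside 446 bp), so nothing is read from this count. The 8 include the printed sites of introns 1 and 10, where the letters lie outside the middle 200 bp of the JUN region. Their positions are chr1:179477847-179477853, chr1:179042213-179042219 and chr1:179000018-179000024. CAGAC was in 8 of 19 SMAD3 regions (42.1%, beside 38.2%), and GGAAA in 6 of 16 NFATC2 regions (37.5%, beside 42.9%). None of these letters lay in the regions of the intron 5 repeat.

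**Figure D5:**
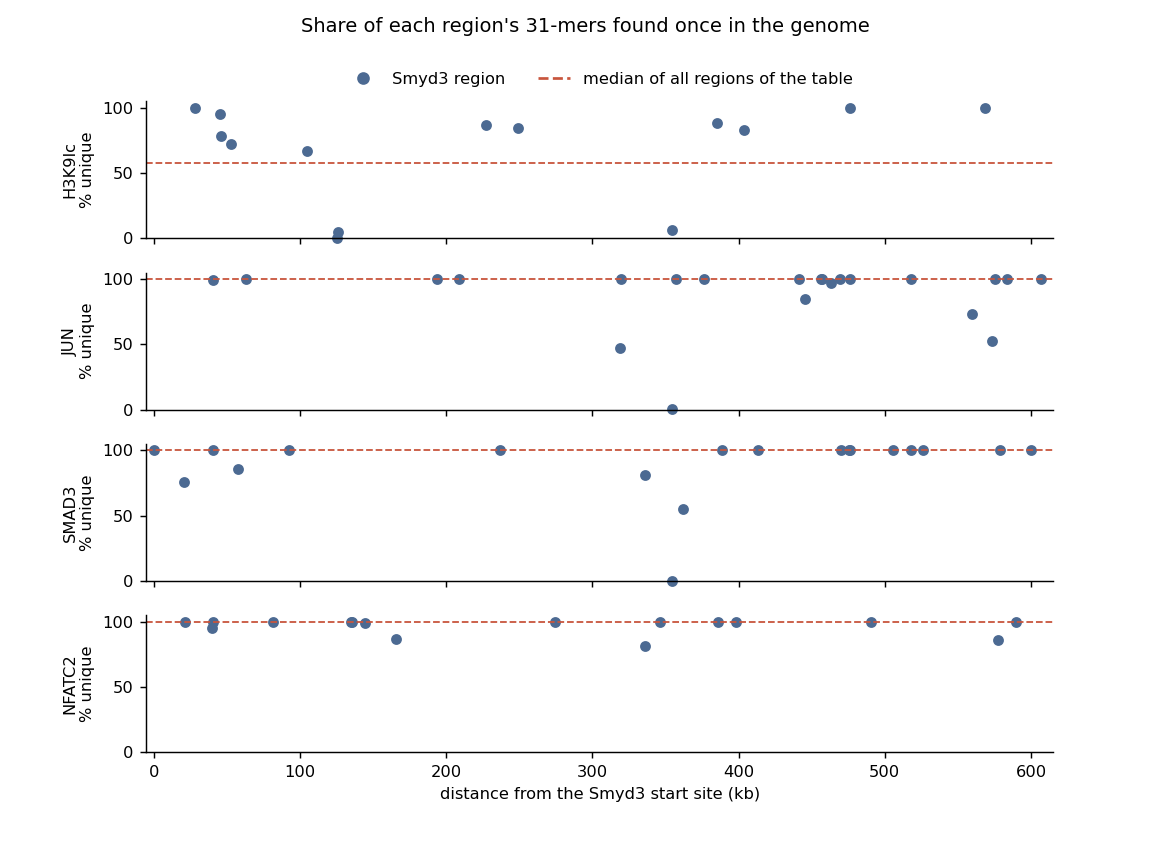
Share of the 31-mers of each Smyd3 region that occur once in the genome, in percent, against the distance from the start site in kb, with the median of all regions of the table as a dashed line. The regions at 354 kb stand at 6.15% for H3K9lc, 0.421% for JUN and 0% for SMAD3.

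The other SMYD genes encode methyltransferases with the same 2 domains. They had far fewer regions, 0 to 8 per antibody in TGF and siHK1, and so carried fewer values. For H3K9lc, Smyd1, which acts in heart and skeletal muscle, had 46 reads in TGF and 14 in siHK1 (log2 -0.90 [-1.88, -0.016]), Smyd2 had 14 and 6, and Smyd4 had 138 and 66 (log2 -0.25 [-0.70, 0.18]), while Smyd5 had no listed region. For JUN, Smyd2 had 240 and 96 (log2 -0.43 [-0.79, -0.082]) and Smyd4 682 and 320 (log2 -0.20 [-0.40, -0.0058]), while the intervals of Smyd1, with 140 and 79, and Smyd5, with 269 and 122, include 0. For SMAD3, Smyd1, Smyd2 and Smyd4 had 5 to 12 reads per library, with every interval including 0. For NFATC2, Smyd4 had 12 and 18 (log2 1.28 [0.15, 2.47]), Smyd2 had 8 and 4, Smyd5 had 1 and 2, and Smyd1 had no listed region. The sums of these genes are not split by peak mark, and only 3.609% of all NFATC2 regions had a peak in both libraries. They are given as a description.

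Among the neighbours, Kif26b had JUN sums of 825 and 351 (log2 -0.34 [-0.53, -0.16]) and SMAD3 sums of 65 and 68 (log2 0.56 [0.048, 1.07]), the same directions as Smyd3, to which some regions within its body are assigned. Its H3K9lc sums were 58 and 23 (log2 -0.52 [-1.29, 0.20]) and its NFATC2 sums 59 and 40 (log2 0.14 [-0.48, 0.74]). On the other side, Tfb2m and Cnst had no H3K9lc region in TGF and siHK1. Tfb2m had JUN sums of 54 and 39 and Cnst of 244 and 145, with both intervals including 0. SMAD3 sums were 35 and 20 for Cnst (log2 -0.31 [-1.18, 0.52]) and 3 and 2 for Tfb2m (log2 -0.09 [-3.67, 3.04]), on the other side of 0 from Smyd3. NFATC2 sums of Cnst were 27 and 9 (log2 -0.89 [-2.16, 0.25]), and Tfb2m had no listed region. The JUN interval of Smyd3 itself includes 0 at equal listed totals. Only 4.975% of all SMAD3 regions and 3.609% of all NFATC2 regions had a peak in both libraries. The sums of the neighbours are not split by peak mark, so they and their directions are a description.

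Region counts may depend on gene length, which was not tested, so Smyd3 was set beside the 354 protein-coding genes of at least 400 kb. By regions per 100 kb of gene it ranked 78 for H3K9lc (2.30, median 1.26), 93 for JUN (3.18, median 1.54), 43 for SMAD3 (3.003, median 1.74) and 135 for NFATC2 (2.47, median 2.21). By TGF reads per 100 kb it ranked 52, 76, 78 and 276 in the same order, so NFATC2 was the 1 antibody with fewer reads there than the median long gene, at 4.77 beside 7.65.

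The 5 genes whose pattern across libraries was most like that of Smyd3, whatever their level, were 1700036G14Rik (Pearson r 0.97), Sesn3 (0.96), Top1 (0.95), Pcbp3 (0.94) and Enpp6 (0.94). The measure was taken over 10 library columns among 3796 genes with at least 20 reads in each of the 4 tables, with each column centred on its median over genes. The TGF library of H3K9lc enters in both of its comparisons, and the values are a description. On that log2 scale Smyd3 stood above the median gene in all 10 columns, least in the NFATC2 library of TGF at 0.30. These sums are not divided by gene length, and Smyd3 spans 566.1 kb, so that standing is not a density.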

How the data were processed

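CUT&Tag libraries of murine cardiac fibroblasts were made with the Vazyme kit. The study's methods name Bowtie2, GRCm39 and MACS2, while the submitters' processing notes name BWA 0.7.12 and mm10. All 17995 transcripts of the H3K9lc table that were found in GENCODE vM21 had GRCm38 coordinates, and this build is used. The authors deposited raw read counts per region and a mark, 0 or 1, for a called peak in each library. The columns of normalized values (10, whose names match no sample), fold changes, p-values and calls made by the authors were not used, nor were spike-in reads. A library titled TGF, with no antibody in its labels, was not used.

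Counts were compared between 2 libraries at equal listed totals, as log2 of count + 0.5, and called at 2-fold or where the exact conditional binomial (Clopper-Pearson) 95% interval lay on 1 side of 1. No test was possible with 1 library per condition. Regions named are those within 3 kb of a start site, the 3 of highest level per table, the 2 largest changes each way above the median level, and sites of several antibodies. Other regions named were chosen after their values were seen. The genes and lists were chosen with earlier results of these data known. RefSeq promoters had no Smyd3 entry. Motifs and 31-mers were read from GRCm38.p6 with pysam 0.24.0 and numba 0.67.0, and intervals computed with scipy 1.17.1. Scripts were tested on simulated counts. Alternatives were other pseudocounts, no scaling, level and uniqueness filters, regions by position, and other overlap rules.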

Additional observations from a re-analysis of the deposited data

How the results depend on the processing

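Of 112 alternative values for sums and counts, 81 stayed close to the reported value (within the counting interval, or within 1.5 times for counts), 31 moved and 0 reversed a sum whose interval excluded 0. Only the SMAD3 and NFATC2 sums had such an interval, so no other value could be counted as reversed. The H3K9lc sum changed sign, to 0.07, among regions at least 50% unique and is counted as close. For single named regions, 153 of 164 stayed within the counting interval and the other 11 moved, all without scaling. Without scaling, summed log2 ratios were -0.91 for H3K9lc, -1.02 for JUN, 0.26 for SMAD3, 0 for NFATC2 and 4.87 for TGF over NC, since the libraries differ in listed reads. Region counts then were 6 lower for H3K9lc, 13 lower for JUN, 5 higher for SMAD3, 5 higher for NFATC2, and 1 lower and 12 higher for TGF over NC. No share over all regions was computed without scaling. As a median over regions, JUN stood at -0.33. Above the median level, counts were 0 higher for H3K9lc, 0 lower and 0 higher for JUN, 2 lower for SMAD3, 3 higher for NFATC2, and 0 lower and 3 higher for TGF over NC, as fewer regions were counted. By the counting interval alone, counts were 0 higher for H3K9lc, 3 lower for JUN, 1 lower and 3 higher for SMAD3, 0 lower and 0 higher for NFATC2, and 1 lower and 0 higher for TGF over NC. Within the gene body, 1 NFATC2 region was lower, and with a pseudocount of 1, 2 regions of TGF over NC were higher. Among regions at least 50% unique, an alternative chosen after seeing the data, 0 JUN regions were lower and 0 higher. A further one chosen after seeing the data set the median of regions with a peak in both libraries to 0: it shifted TGF over NC by 0.83 and the other tables by at most 0.09 (log2) downward, and gave sums of -0.17, -0.21, 0.67, 0.67 and 1.37 in the order above. The interval of JUN then lay below 0 [-0.35, -0.081] and that of TGF over NC above 0 [0.58, 2.29]. Of the 22 JUN regions 9 had a peak in TGF alone and 1 in siHK1 alone, and 12 of the 14 regions of TGF over NC had one in TGF alone. Both sums are therefore a description. The overlap with H3K9lc was 4 regions, 4 by 50% of the shorter region and 6 within 1 kb. The deposited normalized values were not run, because their column names match no sample. No paired analysis was possible because the libraries carry no replicate numbers and stand alone in their groups, and no replicate could be left out. Depth limits the SMAD3, NFATC2 and NC values, where most regions have under 10 reads.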
